A study of Drosophila melanogaster with 27 samples.

Results

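Immunoprecipitates of the Argonaute protein AGO1 (IP) from heads of wild-type adult Drosophila melanogaster collected at night were compared with the head extracts they were taken from (INPUT). Members were taken by sample title: 6 IP arrays, 2 each at Zeitgeber times 15, 19 and 23 h (ZT, hours after lights on), and 6 INPUT arrays, 2 each at the same times, which makes 12 of the 27 arrays of the series. All of these groups were wild type, lived under 12 h light and 12 h dark, and carried no labelled treatment. The sources used here do not give strain, sex, age in days or heads per sample. Each sample was hybridised to 1 Affymetrix array, the replicates are biological per the series' design text, and as no control-serum precipitate was analysed here, non-specific binding is part of each IP value.

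AGO1 is the Argonaute protein that carries most microRNAs in flies. The loaded microRNA pairs through its seed with sites that lie mostly in the 3′ untranslated region of a messenger RNA, and AGO1 with its partner GW182 (the product of gw) then recruits deadenylation and decapping factors, so that the messenger is translated less and decays sooner. The level of a messenger in an AGO1 precipitate relative to the extract is therefore read as a measure of how much of it travels with AGO1. In fly heads the eyes, brain, glia, fat body and muscle all contribute RNA, and these bulk samples cannot tell a smaller share of cells of one type from less RNA per cell.

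The values are on a log2 scale, 1 per probe set and array. Array medians lay between 4.78 and 4.89 in the 6 IP arrays and between 6.11 and 6.19 in the 6 INPUT arrays, so that the fractions look as if they had been normalized as separate sets. Every level below is therefore given as log2 relative to the median probe set of its array, and enrichment is the IP level minus the INPUT level. On the deposited scale every night enrichment is lower by 1.32, and any value between 0 and that shift changes its sign. No 2 night arrays repeated one another (highest correlation 0.996), and the small number of arrays is what limits the precision. As list means, genes of eye, neurons and glia were well above the array median in both fractions. The mean level of 15 photoreceptor genes lay between 4.26 and 4.49 in IP and between 4.41 and 4.83 in INPUT. That of 19 synaptic and neuronal genes lay at 3.49 to 3.71 in IP and 3.25 to 3.87 in INPUT. That of 10 glial genes lay at 3.21 to 3.55 in IP and 2.61 to 3.08 in INPUT. Single members could lie lower, as the glial gene Gat did (given below). No probe set was annotated to AGO1, Dcr-1, ninaE or Mhc by itself.

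At night 4674 of 15130 probe sets tested were higher in IP (30.9%) and 4755 were lower (31.4%), by limma with the pair of IP and INPUT as a block and Benjamini-Hochberg adjusted p under 0.05. Counted by gene, 3865 were higher, 3753 were lower and 3500 did not pass the test. By size, 1300 probe sets were higher by more than 2-fold (8.59%), against 517 that were lower by more than 2-fold (3.42%). The extremes over all probe sets were 15.1-fold higher and 14.8-fold lower. The probe set that was 14.8-fold lower belongs to no gene named below. In 2848 probe sets all 6 IP arrays lay above all 6 INPUT arrays (18.8%), and in 2310 they lay below all of them (15.3%). Without centring the same test called 592 higher and 14076 lower. Of the 9429 calls on the centred scale, 86.8% had 1 sign in all 6 pairs. The quartiles over all probe sets were -0.31 and 0.32, with a median of 0.0022. Calls were less frequent where the INPUT level was low: below the lower quartile of INPUT level 17.3% were higher and 7.69% lower, and above the upper quartile 31.6% were higher and 46.6% lower.

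**Figure D1:**
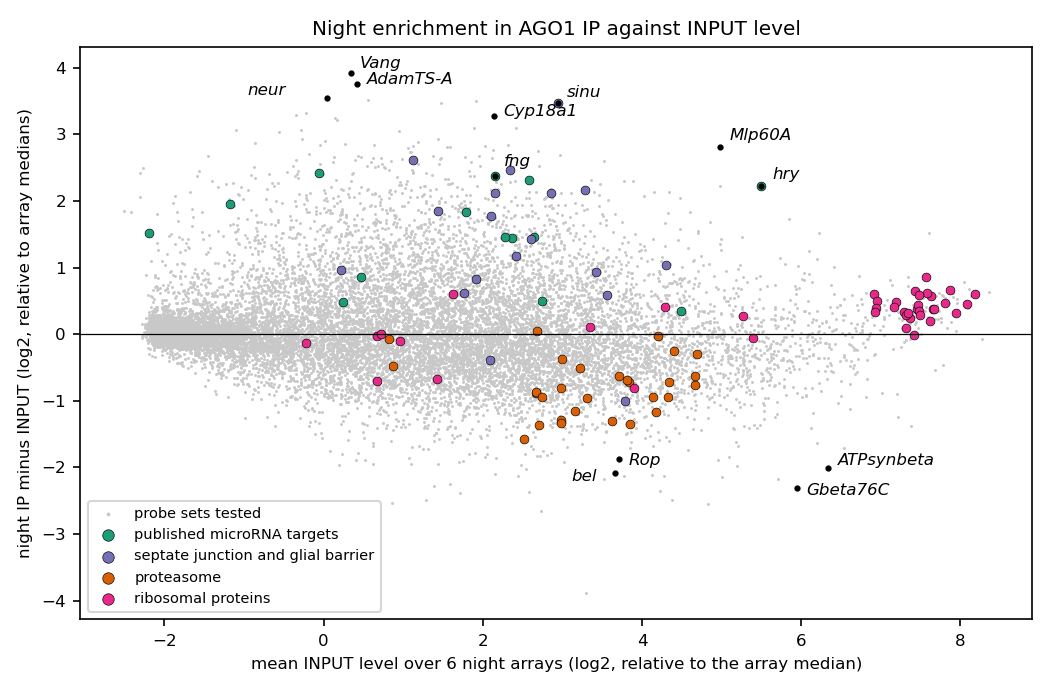
Night enrichment (mean of 6 pairs, IP minus INPUT, log2 relative to array medians) against the mean INPUT level over 6 night arrays, 1 grey point per probe set tested. Members of the microRNA target and septate junction lists lie mostly above 0 and proteasome subunits below it, while most ribosomal protein genes cluster at the right end at small positive values. On the deposited scale all points sit lower by 1.32, and under quantile normalization the median of the ribosomal protein genes is 0.0031.

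The highest night enrichment belonged to Vang, which encodes a transmembrane protein of the planar cell polarity core. Its lowest, median and highest levels were 4.05, 4.24 and 4.44 in IP, against -0.017, 0.31 and 0.88 in INPUT. All IP arrays lay above all INPUT arrays, and the enrichment of 3.92 (SE 0.10, adjusted p = 1.15e-13) corresponds to 15.1-fold. neur, a ubiquitin ligase that drives endocytosis of the Notch ligand Delta, had levels of 3.18, 3.57 and 4.10 in IP and -0.24, -0.034 and 0.38 in INPUT, an enrichment of 3.55 (SE 0.081, adjusted p = 4.35e-14). sinu, a claudin of the septate junction, was abundant in both fractions, at 6.23, 6.40 and 6.56 in IP, against 2.68, 3.0 and 3.12 in INPUT, and was enriched by 3.47 (SE 0.089, adjusted p = 1.15e-13). Cyp18a1, the cytochrome P450 that inactivates ecdysone, had 4.85, 5.60 and 5.68 in IP and 1.52, 2.24 and 2.52 in INPUT. Its arrays differed from each other within each fraction, but the fractions did not overlap, and the enrichment was 3.28 (SE 0.073, adjusted p = 4.33e-14), with a standard error below the median of 0.084 over all probe sets.

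The other genes among the 15 highest, each with the same sign in all 6 pairs and no overlap between fractions, fell between 3.75 and 3.03. AdamTS-A, a secreted metalloprotease, stood at 3.75 (SE 0.082), but its other probe set, with levels below the array median in all IP arrays, had -0.38 (adjusted p = 0.000796), so the high value belongs to 1 of its probe sets. ana, a glycoprotein secreted by glia that holds neuroblasts quiescent, was enriched by 3.50 (SE 0.11). mew, the integrin alpha subunit PS1, was enriched by 3.22 (SE 0.12), and Tes, a LIM domain protein, by 3.24 (SE 0.10). bip1 had 3.52, the non-coding RNA lncRNA:CR42549 had 3.47, and the genes known only by number, CG15345, CG31710, CG6583, CG10710 and CG15385, had 3.32, 3.10, 3.09, 3.06 and 3.03.

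The 10 genes of lowest enrichment were led by lncRNA:CR42862 at -2.36 (SE 0.10, adjusted p = 6.72e-12) and by Gbeta76C, the eye-specific G protein beta subunit of phototransduction. Gbeta76C had levels of 3.37, 3.61 and 3.92 in IP, against 5.61, 5.88 and 6.36 in INPUT, a difference of -2.32 (SE 0.083, adjusted p = 1.35e-12), or 4.98-fold lower in IP. bel, a DEAD-box RNA helicase, had 1.48, 1.54 and 1.78 in IP and 3.39, 3.66 and 3.90 in INPUT, a difference of -2.09 (SE 0.089, adjusted p = 7.49e-12). In both genes the fractions did not overlap. ATPsynbeta, the catalytic subunit of mitochondrial ATP synthase, was lower by -2.01 (SE 0.094), and GstE9, a glutathione transferase, by -1.98 (SE 0.086). The deubiquitinase gene Usp32 was at -2.13 (SE 0.094), the ubiquitin-conjugating enzyme gene Bruce at -1.97 (SE 0.081) and the ubiquitin ligase gene Ubr3 at -1.93 (SE 0.12). Sgp and CG2747 completed the group at -2.17 and -1.95.

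**Figure D2:**
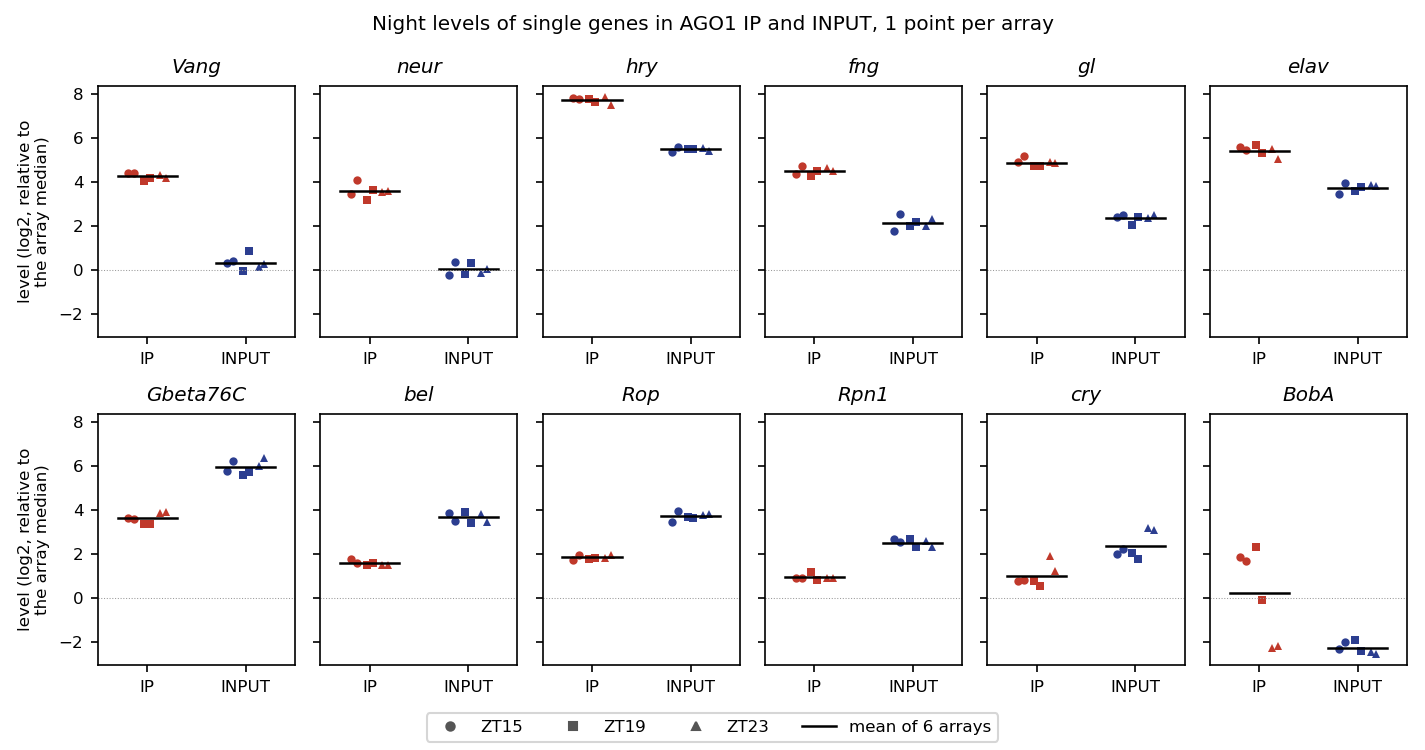
Levels (log2 relative to the array median) of 12 genes in each of the 6 IP arrays (left) and 6 INPUT arrays (right) of a panel, with marker shape for the time and a bar for the mean. IP and INPUT are apart in the first 10 genes, cry overlaps only through 1 IP array of ZT23, and BobA in IP is spread widely, with its ZT23 arrays near the INPUT level. On the deposited scale all IP points sit lower by 1.32 relative to INPUT, which brings hry, fng, gl and elav closer to INPUT without turning them.

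Genes published as microRNA targets, a list that includes death genes, Notch modifiers and developmental transcription factors, were higher in IP in 14 of the 14 measured, against 30.9% of all probe sets, with a median of 1.49 against 0.0022 over all probe sets. Its median was 0.17 on the deposited scale, with 7 members higher and 4 lower. The list was written with earlier results of these arrays known, so its count is not independent evidence of its direction. A further member, nerfin-1, did not pass the filter on low values. IP arrays lay wholly above INPUT arrays in 11 of the 14, against 18.8% of all probe sets. Past 2-fold were 10, against 8.59% of all probe sets. grim, a promoter of cell death, passed the filter through IP, with 4 IP arrays and 2 INPUT arrays above the filter value. skl (sickle), another death gene, had levels of 1.78, 2.33 and 3.01 in IP, against -0.83, 0.15 and 0.35 in INPUT, an enrichment of 2.42 (SE 0.092, adjusted p = 2.25e-12). fng, the glycosyltransferase that modifies Notch, had 4.30, 4.51 and 4.76 in IP and 1.79, 2.10 and 2.56 in INPUT, an enrichment of 2.37 (SE 0.083, adjusted p = 9.76e-13). sug, a zinc finger transcription factor, was enriched by 2.32 (SE 0.10). hry (hairy), a repressor of the bHLH class, was one of the brightest transcripts of the precipitate, with 7.5, 7.77 and 7.85 in IP, against 5.37, 5.52 and 5.59 in INPUT, an enrichment of 2.23 (SE 0.076, adjusted p = 7.8e-13). The smallest value on the list was that of tim, at 0.35 (SE 0.086) by its brighter probe set. Its other probe set was lower in IP, at -2.29 (SE 0.12, adjusted p = 9.21e-11). Without the block by pair 13 of the 14 genes were higher.

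In the Notch pathway 7 of 10 measured genes were higher and 1 was lower, against 30.9% and 31.4% of all probe sets, with a median of 0.47 (-0.85 on the deposited scale). Besides neur and fng, the largest were kuz, the ADAM protease that cleaves Notch, at 1.67 (SE 0.091, adjusted p = 1.37e-10), and H (Hairless), the corepressor bound to Su(H), at 1.65 (SE 0.075, adjusted p = 1.65e-11). Both had IP arrays above all INPUT arrays, with 1.97, 2.47 and 2.99 in IP and 0.58, 0.80 and 0.93 in INPUT for kuz, and 2.76, 2.93 and 3.09 in IP and 1.09, 1.28 and 1.52 in INPUT for H.

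The E(spl) genes are direct Notch targets, and messengers of the E(spl) and Bearded families carry conserved microRNA sites. Of the 10 members that passed the filter 8 were higher in IP, against 30.9% of all probe sets. Ocho (-0.16) and E(spl)mbeta-HLH (-0.19) did not pass the test, and the median of the 10 was 1.65 (0.33 on the deposited scale). E(spl)mdelta-HLH, E(spl)m4-BFM and E(spl)m6-BFM did not pass the filter. BobA passed it through IP, with 4 IP arrays and 2 INPUT arrays above the filter value, so its call is not independent of the filter, and the count of the family is a description. Some members were steady through the night. E(spl)m3-HLH, a bHLH repressor, had levels of 2.24, 2.62 and 3.25 in IP, against -0.091, 0.41 and 0.76 in INPUT, and enrichments of 2.28, 2.31 and 2.30 at ZT15, ZT19 and ZT23. E(spl)malpha-BFM and E(spl)m2-BFM, both of the Bearded type, averaged 2.22 (SE 0.13, adjusted p = 2.62e-10) and 2.18 (SE 0.085, adjusted p = 2.83e-12). The median over the 10 genes was 2.04 at ZT15, 2.24 at ZT19 and 0.35 at ZT23, and with all 6 pairs BobA alone of the 10 genes passed the test of a change through the night. With 1 pair left out, Brd and E(spl)m5-HLH passed it without ZT19 replicate 2, and Tom without ZT23 replicate 2.

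**Figure D3:**
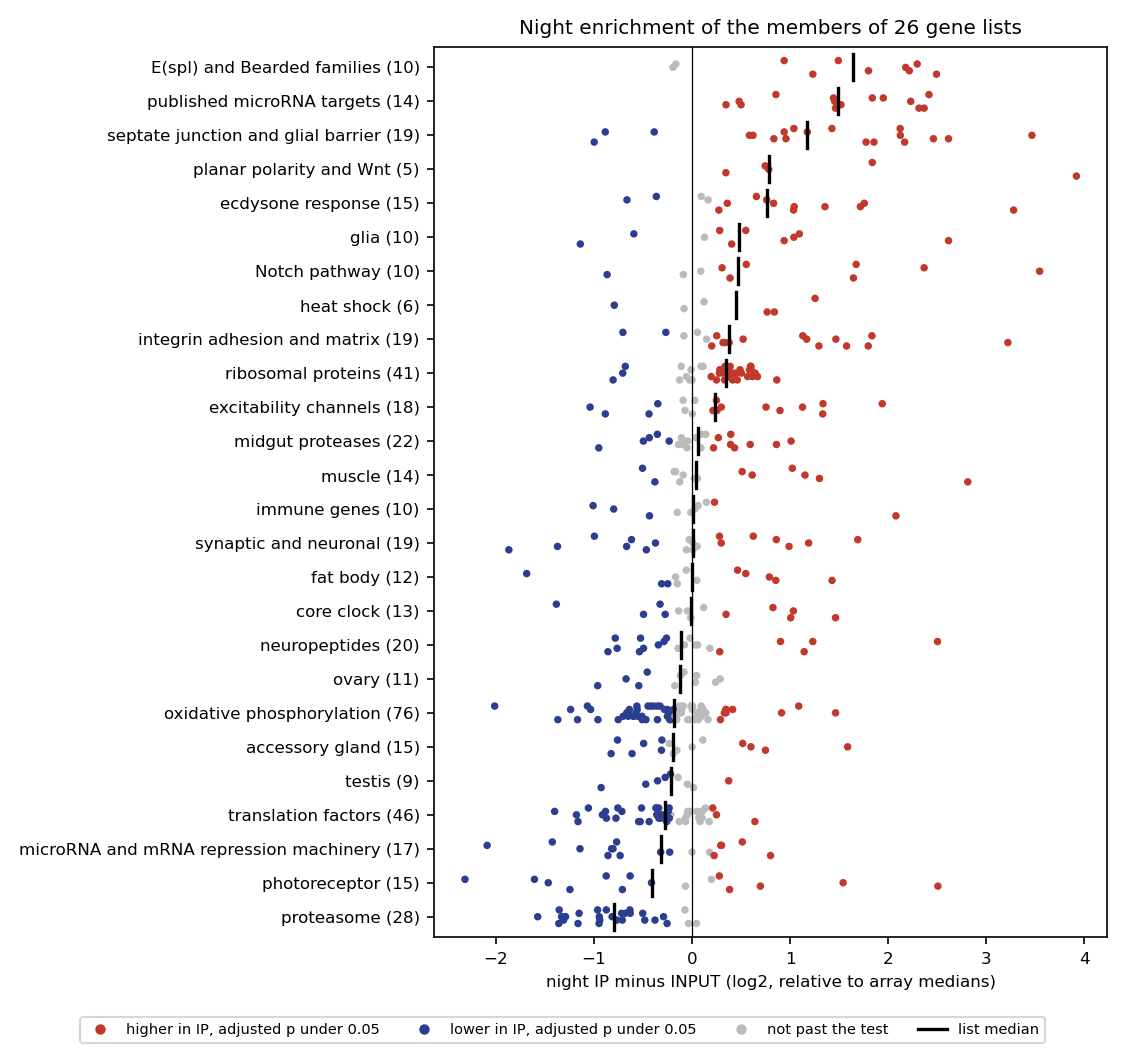
Night enrichment (log2, relative to array medians) of each measured member of 26 gene lists, with the number of members in brackets (a gene can stand in several lists) and a bar at the list median; red points were higher and blue points lower in IP at adjusted p under 0.05. E(spl) and Bearded genes, microRNA targets and septate junction genes have the highest medians and proteasome subunits the lowest. On the deposited scale every point lies lower by 1.32 and only the medians of the first 2 stay above 0.

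Septate junctions seal epithelia and the glial barrier around the brain, and 16 of the 19 genes measured were higher and 3 lower, against 30.9% and 31.4% of all probe sets, at a median of 1.18 (-0.14 on the deposited scale, with 8 higher and 9 lower). IP arrays lay wholly above INPUT arrays in 15 of them, against 18.8% of all probe sets. Gli (Gliotactin), a protein of tricellular junctions, had 3.37, 3.80 and 3.93 in IP, against 0.70, 1.18 and 1.53 in INPUT, an enrichment of 2.62 (SE 0.092, adjusted p = 9.76e-13). The claudins kune and pck followed at 2.46 (SE 0.079) and 2.17 (SE 0.095).

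Of 19 genes of integrin adhesion and matrix, 14 were higher and 2 lower, against 30.9% and 31.4% of all probe sets. Their median was 0.38 (-0.94 on the deposited scale). Beyond mew, the laminin alpha subunit wb was enriched by 1.84 (SE 0.15), and the integrin alpha subunits if and scb by 1.80 (SE 0.079) and 1.58 (SE 0.074). All 5 measured genes of planar polarity and Wnt secretion were higher, against 30.9% of all probe sets. They had a median of 0.78 (-0.54 on the deposited scale), while fj did not pass the filter. After Vang these were led by wls, which escorts Wnt proteins to the surface, with 3.34, 3.55 and 4.08 in IP and 1.65, 1.73 and 1.97 in INPUT. The cadherins ds and stan had 0.78 and 0.75, and both turn negative on the deposited scale.

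Of 15 ecdysone response genes, 11 were higher and 2 lower, against 30.9% and 31.4% of all probe sets. Their median was 0.76 (-0.56 on the deposited scale). The nuclear receptors Hr4 and Hr39 were enriched by 1.76 (SE 0.077) and 1.72 (SE 0.082), and ImpL2, a secreted binder of insulin-like peptides, by 1.36 (SE 0.078), a call that was lost on the deposited scale (0.039, adjusted p = 0.609). Hr4 had -0.18, 0.16 and 0.24 in IP, against -1.80, -1.61 and -1.43 in INPUT, so that its messenger stood near the array median in the precipitate and far below it in the extract.

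Several housekeeping lists lay on the other side. Of the 28 proteasome subunits 25 were lower in IP, against 31.4% of all probe sets, and 3 did not pass the test, with a median of -0.79 (-2.11 on the deposited scale). Rpn1, a scaffold of the regulatory particle, had levels of 0.83, 0.91 and 1.19 in IP, against 2.31, 2.56 and 2.68 in INPUT, a difference of -1.57 (SE 0.076, adjusted p = 3.42e-11). The ATPase Rpt4, the catalytic subunit Prosbeta5 and the ATPase Rpt2 had -1.36, -1.35 and -1.33. IP arrays lay wholly below INPUT arrays in 20 subunits, against 15.3% of all probe sets. Each of the 6 fits that left out a pair gave 25 lower calls.

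Translation factors had 28 of 46 genes lower and 3 higher, against 31.4% and 30.9% of all probe sets. Their median was -0.27 (-1.59 on the deposited scale). The lowest were eIF3a at -1.40 (SE 0.082, adjusted p = 3.29e-10), eIF2Bbeta at -1.18, eIF3c at -1.16 and eIF3b at -1.06, of which the eIF3 proteins belong to the complex that holds the small ribosomal subunit during initiation. eIF3a had 2.97, 2.99 and 3.10 in IP, against 4.20, 4.45 and 4.62 in INPUT. In oxidative phosphorylation 39 of 76 genes were lower and 9 higher, against 31.4% and 30.9% of all probe sets. The median of the 76 was -0.19 (-1.51 on the deposited scale). The median INPUT level was 4.86 in this list and 4.36 among the translation factors. Above the upper quartile of INPUT level 46.6% of all probe sets were lower and 31.6% higher. Members of one complex could differ in direction: within complex I, ND-51 and ND-75 were at -1.37 and -1.24, whereas ND-B16.6 was at 1.46 (SE 0.12), with 6.25, 6.76 and 7.05 in IP and 5.01, 5.31 and 5.36 in INPUT. ND-B16.6 was at 0.15 on the deposited scale and did not pass there (adjusted p = 0.206).

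Ribosomal protein genes gave a result that depends on the scale. Of 41 genes 30 were higher and 3 lower, against 30.9% and 31.4% of all probe sets, at a median of 0.35. But the median was 0.0031 under quantile normalization, with 11 higher and 6 lower, and -0.97 on the deposited scale. These genes were among the brightest of each array, with a median level of 7.62 in IP and 7.32 in INPUT. RpS20 had 8.37, 8.43 and 8.49 in IP, against 7.47, 7.55 and 7.70 in INPUT, a difference of 0.87 (SE 0.071, adjusted p = 1.81e-08). RpL10Aa, RpLP0-like and RpL22-like, which are paralogs or relatives of standard subunit genes, were the lower ones at -0.80, -0.71 and -0.68.

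The machinery of microRNA action and messenger decay itself had 10 of 17 genes lower and 5 higher, against 31.4% and 30.9% of all probe sets. Its median was -0.32 (-1.64 on the deposited scale). After bel, the decapping activator Patr-1 was lowest at -1.42 (SE 0.10, adjusted p = 5.02e-09), with 0.29, 0.57 and 1.14 in IP and 1.88, 2.04 and 2.21 in INPUT. Tudor-SN, a nuclease found in silencing complexes, was at -1.14 (SE 0.076), and Dcr-2, the Dicer of the siRNA pathway, at -0.86 (SE 0.083). The highest was gw, the GW182 gene, at 0.80 (SE 0.074, adjusted p = 7.88e-08), a value that turns negative on the deposited scale.

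Eye and brain genes moved in both directions. Among 15 photoreceptor genes 8 were lower and 5 higher, against 31.4% and 30.9% of all probe sets. Their median was -0.41 (-1.73 on the deposited scale). The median INPUT level of these genes was 5.08, and above the upper quartile of INPUT level 46.6% of all probe sets were lower and 31.6% higher. Beside Gbeta76C, the scaffold inaD was lower in IP, with 2.53, 2.65 and 3.08 in IP, against 3.94, 4.27 and 4.91 in INPUT, a difference of -1.61 (SE 0.084, adjusted p = 8.95e-11). The enriched members were led by gl (glass), the zinc finger factor of photoreceptor development, with 4.72, 4.89 and 5.20 in IP and 2.07, 2.42 and 2.53 in INPUT, an enrichment of 2.51 (SE 0.076, adjusted p = 2.82e-13), followed by rdgC, the rhodopsin phosphatase, at 1.54 (SE 0.088, adjusted p = 2.3e-10). The fractions overlapped in neither gl nor inaD.

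In the synaptic and neuronal list 7 of 19 genes were higher and 7 lower, near the 30.9% and 31.4% of all probe sets. The list median was 0.0082 (-1.31 on the deposited scale). Rop, the Sec1/Munc18 protein of vesicle fusion, had 1.75, 1.82 and 1.97 in IP, against 3.45, 3.73 and 3.96 in INPUT, a difference of -1.87 (SE 0.074, adjusted p = 3.43e-12), and the SNARE protein gene Snap25 was at -1.37 (SE 0.083, adjusted p = 4.57e-10). elav, the pan-neuronal RNA-binding protein gene, had 5.05, 5.48 and 5.67 in IP, against 3.44, 3.80 and 3.96 in INPUT, an enrichment of 1.69 (SE 0.11, adjusted p = 8.02e-10), and the calcium channel gene cac was at 1.19 (SE 0.084), a value that turns negative on the deposited scale.

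Of 18 genes for channels of excitability, 10 passed the test as higher and 4 as lower, against 30.9% and 31.4% of all probe sets. Their median was 0.23 (-1.09 on the deposited scale). The genes eag, Elk and na passed the filter through INPUT, so a lower call of these genes is not independent of the filter. With only probe sets of a mean above 5 (deposited log2) kept, the list had 14 genes, 9 higher and 2 lower. The potassium channel genes Irk1, Sh, Shal and SK had 1.94 (SE 0.075), 1.34, 1.33 and 1.13, and without the block by pair 6 genes of the list were higher. On the deposited scale Sh (0.018, adjusted p = 0.816) and Shal (0.015, 0.874) did not pass, and SK was at -0.19. Among 20 neuropeptide genes 9 were lower and 5 higher, against 31.4% and 30.9% of all probe sets. Their median was -0.11 (-1.43 on the deposited scale), and amn did not pass the filter. CCHa2, which encodes a peptide hormone, was highest at 2.5 (SE 0.085, adjusted p = 7.24e-13), with 4.59, 4.91 and 5.10 in IP and 2.16, 2.40 and 2.58 in INPUT, while SIFa, Nplp1 and ITP had 1.23, 1.14 and 0.90, all of which turn negative on the deposited scale.

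Of 10 glial genes 7 were higher and 2 lower, against 30.9% and 31.4% of all probe sets. Their median was 0.48 (-0.84 on the deposited scale). repo, the transcription factor that defines glia, had 4.62, 4.79 and 5.01 in IP, against 3.40, 3.75 and 3.95 in INPUT, an enrichment of 1.10 (SE 0.083, adjusted p = 7.82e-09), and nrv2, a sodium pump subunit, had 1.04 (SE 0.094), while both are below 0 on the deposited scale. Gat, the glial GABA transporter, was at -1.14 (SE 0.13, adjusted p = 9.38e-07), with -1.49, -0.42 and 0.40 in IP and 0.27, 0.79 and 1.22 in INPUT, so that the fractions overlapped although IP was lower in all 6 pairs.

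Fat body genes had 5 of 12 higher and 3 lower, against 30.9% and 31.4% of all probe sets. Their median was -0.0037 (-1.32 on the deposited scale). The triglyceride lipase gene bmm (brummer) was at 1.43 (SE 0.089, adjusted p = 7.06e-10), but at 0.11 on the deposited scale, where it did not pass (adjusted p = 0.213), and Lsd-1, a perilipin of the lipid droplet surface, at -1.69 (SE 0.084, adjusted p = 4.57e-11), with 2.20, 2.51 and 2.70 in IP and 3.86, 4.08 and 4.51 in INPUT. Mtp and the yolk protein gene Yp1 had 0.86 and 0.79, which turn negative on the deposited scale. Muscle genes had 6 of 14 higher and 2 lower, against 30.9% and 31.4% of all probe sets (5 and 0 without the block), with a median of 0.039 (-1.28 on the deposited scale). Mlp60A, a muscle LIM protein, was at 2.81 (SE 0.082, adjusted p = 2.25e-13), with 7.53, 7.79 and 8.03 in IP and 4.84, 4.95 and 5.23 in INPUT, but another probe set of the gene had -0.73 (adjusted p = 1.01e-05). The actin genes Act87E and Act88F and the light chain gene Mlc2 had 1.3, 1.15 and 1.02, all below 0 on the deposited scale.

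Muscle RNA differed between samples. The mean level of the 14 muscle genes lay between 3.64 and 4.46 in IP and between 3.10 and 4.17 in INPUT, and was lowest in the same pair, ZT15 replicate 1, and highest in the same pair, ZT19 replicate 2, in both fractions. Act88F, an actin of the flight muscle, ranged over 2.85, 4.50 and 5.75 in IP and 1.55, 3.21 and 4.87 in INPUT. Its call was lost without the block by pair (adjusted p = 0.0861), and the part of muscle RNA in other differences was not tested.

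Heat shock genes had 3 of 6 higher and 1 lower, against 30.9% and 31.4% of all probe sets. Their median was 0.44 (-0.87 on the deposited scale). Hsp27, DnaJ-1 and Hsp68 had 1.26, 0.84 and 0.77, all below 0 on the deposited scale, and Hsf, their transcription factor, had -0.79 (SE 0.085). Of 10 immune genes 2 were higher and 3 lower, against 30.9% and 31.4% of all probe sets. Their median was 0.0086 (-1.31 on the deposited scale). PGRP-LB, an amidase that degrades peptidoglycan, was the exception in size at 2.08 (SE 0.089, adjusted p = 7.93e-12), with 3.04, 3.28 and 3.61 in IP and 1.13, 1.22 and 1.38 in INPUT, whereas the NF-kappaB factor Rel and the antifungal peptide gene Drs were at -1.01 and -0.80. Def, a defensin gene, was at -0.43, and its call was lost without the block (adjusted p = 0.292).

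RNA typical of other body parts was present in these head arrays. The mean level of 9 testis genes lay between 4.70 and 5.39 in IP and between 4.88 and 5.67 in INPUT, and that of 15 accessory gland genes between 2.56 and 3.19 in IP and between 2.68 and 3.35 in INPUT. That of 11 ovary genes ranged from -1.33 to 0.52 in IP and from -1.27 to 0.86 in INPUT, with the pair ZT23 replicate 1 lowest and the pair ZT19 replicate 2 highest in both. Vm32E and vas did not pass the filter. The part of ovary RNA in the differences between times was not tested. At night 1 testis gene was higher and 5 lower (median -0.22), 4 accessory gland genes were higher and 6 lower (-0.19), 4 ovary genes were lower and 7 did not pass (-0.12), and 8 of 22 midgut proteases were higher and 5 lower (0.066), against 30.9% of all probe sets higher and 31.4% lower. Without the block 3 midgut proteases were higher and 3 lower. These medians were -1.54, -1.51, -1.44 and -1.25 on the deposited scale.

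Within these lists Mst84Da, a sperm protein gene, had 4.55, 5.05 and 5.68 in IP, against 5.66, 6.07 and 6.53 in INPUT, a difference of -0.93 (SE 0.083, adjusted p = 5.45e-08). Its neighbours Mst84Db and Mst84Dc had -0.47 and -0.35, and dj had 0.37. Neighbouring seminal fluid genes differed: Acp53C14c had 1.59 (SE 0.092), Acp53C14b 0.75 and Acp53C14a -0.82, while SP, the sex peptide gene, had -0.76. The oocyte determinant osk had -1.84, 0.39 and 1.2 in IP and -2.37, 1.56 and 2.68 in INPUT, the lowest value of each fraction coming from ZT23 replicate 1, and its difference of -0.96 (SE 0.20, adjusted p = 0.000463) was lost without the block (adjusted p = 0.229). The chorion genes Cp18, Cp38 and Cp36 had -0.67, -0.54 and -0.46, and the call of Cp36 was lost without the block (adjusted p = 0.384), without the pair ZT19 replicate 1 (0.0601) and without ZT23 replicate 2 (0.0527). Cp38 passed the filter through INPUT, with 2 IP arrays and 6 INPUT arrays above the filter value. Its lower call is therefore not independent of the filter. Of the digestive proteases Jon99Fi, Jon25Bii and zetaTry had 1.01, 0.86 and 0.59 and epsilonTry -0.95, and the call of Jon99Fi was lost without the block (adjusted p = 0.105). Of these, dj, Acp53C14b, Jon99Fi, Jon25Bii and zetaTry turn negative on the deposited scale.

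Each night time gave calls of similar number. At ZT15, ZT19 and ZT23 tested singly, 3572, 3370 and 3361 probe sets were higher (23.6%, 22.3% and 22.2%) and 3191, 3162 and 3267 were lower (21.1%, 20.9% and 21.6%). Higher calls at all 3 times numbered 2787 and lower calls at all 3 times 2401, and 3 probe sets were called in opposite directions at different times. A test of any change of enrichment among the 3 times called 2 of 15130 probe sets (0.0132%), dy and BobA, while 416 had an unadjusted p under 0.05 (2.75%).

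dy (dusky), which encodes a membrane protein with a zona pellucida domain that shapes epidermal cells, had IP levels of 2.94 and 3.16 at ZT15, 1.19 and 0.75 at ZT19 and -1.37 and -1.6 at ZT23, against INPUT levels of -0.60 and -0.28, -1.3 and -1.54 and -1.59 and -1.80 at those times. The replicates lay close together at each time, and the IP level was high at ZT15 and near the INPUT level at ZT23. The enrichment was 3.49, 2.39 and 0.21 at ZT15, ZT19 and ZT23 (adjusted p = 1.87e-05 for the change), and leaving out any single pair gave a range over the night of 3.22 to 3.33 with adjusted p of at most 0.000791. The ZT23 levels were low in both fractions, near the lower quartile of the arrays, which averaged -1.90 in IP and -1.97 in INPUT, and the part of this floor in the small late difference was not tested.

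BobA, a Bearded family gene, had IP levels of 1.88 and 1.70 at ZT15, 2.34 and -0.075 at ZT19 and -2.27 and -2.20 at ZT23, against INPUT levels of -2.34 and -1.98, -1.91 and -2.39 and -2.46 and -2.52. The INPUT level was below the lower quartile of its array in all night INPUT arrays but ZT19 replicate 1, and the IP replicates at ZT19 differed by more than 2 units. The enrichment was 3.95, 3.28 and 0.25 at ZT15, ZT19 and ZT23 (adjusted p = 0.0206), and the call was lost with quantile normalization (0.105), cyclic loess (0.0702), no block by pair (1.00), without ZT15 replicate 1 (0.387) and without ZT15 replicate 2 (0.202). BobA passed the filter on low values through its IP arrays of ZT15 and ZT19, so the call of a change is not independent of the filter. Its relatives Brd and Tom and the bHLH gene E(spl)m5-HLH likewise had their smallest enrichment at ZT23, but the change did not pass the test with all 6 pairs. Brd had enrichments of 2.15, 2.83 and 0.42 at ZT15, ZT19 and ZT23, Tom 1.95, 2.25 and 0.28, and E(spl)m5-HLH 0.98, 1.65 and 0.18 (adjusted p = 1.00 for each). The change passed without ZT19 replicate 2 for Brd (adjusted p = 0.00358) and E(spl)m5-HLH (0.0172), whose ranges over the night were then 3.32 and 1.99, and without ZT23 replicate 2 for Tom (0.0406), with a range of 2.45. Ocho, which directly follows Brd and Tom in the RefSeq gene table, had -0.25, -0.062 and -0.18 at the same times.

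Arrays taken by day showed that these genes also differed between replicates of 1 time. The IP level of BobA at ZT7 was -2.49 in replicate 1 and 2.57 in replicate 2, and at ZT11 it was -1.91 and 0.39. Brd at ZT7 had -1.92 and 1.95, and Tom had -1.68 and 1.70. Usp8, a deubiquitinase, came next in order of p, with enrichments of 1.33, 1.09 and 0.18 at ZT15, ZT19 and ZT23 (adjusted p = 1.00), on levels that were lower at ZT23 than at ZT15 in both fractions. CG42329 and Cp18 completed the 8 genes of smallest p, with enrichments of 0.046, -0.49 and -0.94 and -0.31, -1.23 and -0.47 at the 3 times and the same adjusted p.

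**Figure D4:**
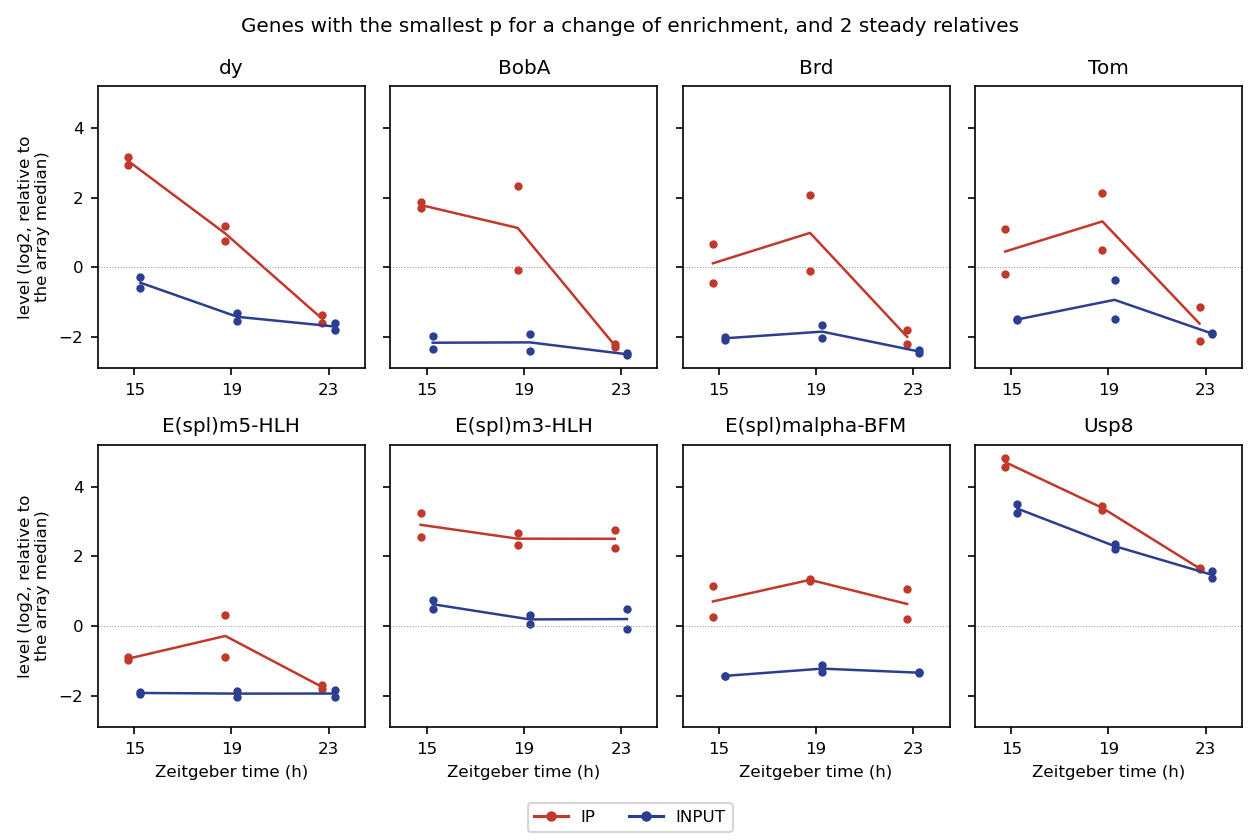
Levels (log2 relative to the array median) at ZT15, ZT19 and ZT23 in IP (red, drawn left) and INPUT (blue, drawn right), 1 point per array and lines through the means of 2. The IP level of dy reaches the INPUT level by ZT23 with close replicates, BobA, Brd, Tom and E(spl)m5-HLH come near it with more widely spread replicates at ZT19, Usp8 falls in both fractions, and E(spl)m3-HLH and E(spl)malpha-BFM stay about 2 units above INPUT at all 3 times.

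Enrichment at night was set against enrichment by day (ZT3, ZT7 and ZT11, 5 pairs). Of the probe sets higher at night 85.4% were also higher by day, which is 93.2% of those higher by day, and of the lower ones 86.9% were also lower by day, or 91.9% of those lower by day. By day 28.3% were higher and 29.7% lower. The difference itself passed the test in 2 probe sets that were more enriched at night (0.0129%) and 2 that were less (0.0129%), with 513 at an unadjusted p under 0.05 (3.31%), and the median absolute difference was 0.0825. As a description, night and day enrichment correlated at 0.981 across probe sets, which come from the same arrays and are not independent.

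dy was enriched by 2.03 on average at night and 0.68 by day. Taken as the mean over 3 times in each, the difference was 1.42 (SE 0.11, adjusted p = 6.31e-05), with the night value resting on ZT15 and ZT19. Fitted as 2 groups of pairs with no mean per time, it was 1.35 with an adjusted p of 0.999. CG7252 had IP levels of -0.72, -0.66 and -0.28 at night, against INPUT levels of -2.07, -1.74 and -1.67, and its enrichment was 1.24 at night and 0.26 by day, a difference of 0.96 (SE 0.12, adjusted p = 0.0128). By day its IP level lay between -2.14 and -1.81, so that all night IP arrays were above all day IP arrays. Its call was lost without ZT7 replicate 1 (adjusted p = 0.0747), ZT11 replicate 1 (0.0701), ZT15 replicate 2 (0.0533) and ZT19 replicate 2 (0.0774).

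CG34134 was less enriched at night, -0.48 against 0.47 by day, a difference of -1.06 (SE 0.15, adjusted p = 0.0257), on a transcript whose IP level ranged from -0.11 at ZT11 to 5.08 at ZT23. Its call held without ZT15 replicate 1, ZT19 replicate 1 and ZT23 replicate 1, and was lost without each of the other 8 pairs (ZT3 replicate 1, 0.367; both of ZT7, 0.149 and 0.0761; both of ZT11, 0.0790 and 0.103; and replicate 2 of ZT15, ZT19 and ZT23, 0.122, 0.116 and 0.0829). It was also lost with a mean above 5 (0.0826) and in the fit of 2 groups of pairs (0.256). The fourth call was the less bright probe set of tim, at -2.29 at night and -1.57 by day, a difference of -0.84 (SE 0.12, adjusted p = 0.0257). This call held without ZT23 replicate 2 (adjusted p = 0.0404) and was lost without each of the other 10 pairs (0.0505 to 0.592), without the block (1.00), with a mean above 5 (0.0721) and as 2 groups of pairs (0.999). Without ZT3 replicate 1, the only pair of that time, the difference was -0.77 for CG34134 and -0.53 for this tim probe set. The sample description of the IP array of that pair names another hour than its title, and the title was used. The part of this in both calls was not tested. The next genes in order of p, CG17562, sv and CG1701, did not pass, with night minus day differences of 0.73 (SE 0.12, adjusted p = 0.113), 0.61 (SE 0.13, adjusted p = 0.688) and 0.62 (SE 0.13, adjusted p = 0.688).

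With 1 pair left out in turn, 1 to 2 probe sets were called more enriched at night and 0 to 1 less enriched. The photoreceptor list had a median of -0.41 at night and 0.089 by day, and Gbeta76C and inaD were at -2.32 and -1.61 at night, against -1.85 and -1.02 by day. No photoreceptor gene passed the test of night minus day.

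The clock of Drosophila runs on a feedback loop in which CLK and CYC activate per, tim, vri, Pdp1 and cwo, and the products of these genes act back on the loop. Of the 13 clock genes measured 5 were higher in IP at night and 4 lower, against 30.9% and 31.4% of all probe sets, with a median of -0.012 (-1.33 on the deposited scale, with 12 lower). Clk was the most enriched, at 1.46 (SE 0.071, adjusted p = 3.38e-11). Its IP levels were 2.69 and 2.82 at ZT15, 3.92 and 4.0 at ZT19 and 4.59 and 4.46 at ZT23, against INPUT levels of 1.29 and 1.40, 2.40 and 2.44 and 3.17 and 3.0. At each time both IP arrays lay above both INPUT arrays, and the enrichment stayed at 1.41, 1.54 and 1.44. It was 0.15 on the deposited scale and did not pass there (adjusted p = 0.0611).

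vri, a bZIP repressor of Clk, was enriched by 1.03 (SE 0.10, adjusted p = 1.02e-07) and cwo, a bHLH repressor, by 1.01 (SE 0.084, adjusted p = 2.41e-08). jet, the F-box protein that targets TIM for degradation in light, was at 0.83 (SE 0.082, adjusted p = 1.91e-07), with -0.20, 0.16 and 0.37 in IP and -0.88, -0.69 and -0.49 in INPUT and no overlap. All of vri, cwo and jet were negative on the deposited scale (-0.28, -0.31 and -0.49). cry, the blue light receptor, was the least enriched clock gene at -1.38 (SE 0.090, adjusted p = 1.09e-09), with 0.53, 0.78 and 1.90 in IP and 1.76, 2.12 and 3.19 in INPUT, and was lower in IP in all 6 pairs. Pdf, the neuropeptide of the clock neurons, was at -0.49 (SE 0.078, adjusted p = 3.51e-05), and cyc, the partner of Clk, at -0.27 (SE 0.081, adjusted p = 0.00744).

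per was lower in IP, at -0.33 (SE 0.12, adjusted p = 0.0229), but not without the block (adjusted p = 0.0573), without the pair ZT15 replicate 1 (0.0689) or without ZT15 replicate 2 (0.117). Its enrichments were -0.74, -0.17 and -0.066 at ZT15, ZT19 and ZT23. tim was higher by its brighter probe set, at 0.35 (SE 0.086, adjusted p = 0.0021), and just missed the threshold without the block (adjusted p = 0.050), whereas its other probe set was at -2.29 (SE 0.12, adjusted p = 9.21e-11). That probe set had -1.57, -1.05 and -0.073 in IP, against 0.034, 1.52 and 2.56 in INPUT, and the levels of both probe sets were lower at ZT23 than at ZT15 in both fractions. Pdp1, dco, slmb and Pdfr did not pass the test, at 0.12, -0.046, -0.012 and -0.14.

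**Figure D5:**
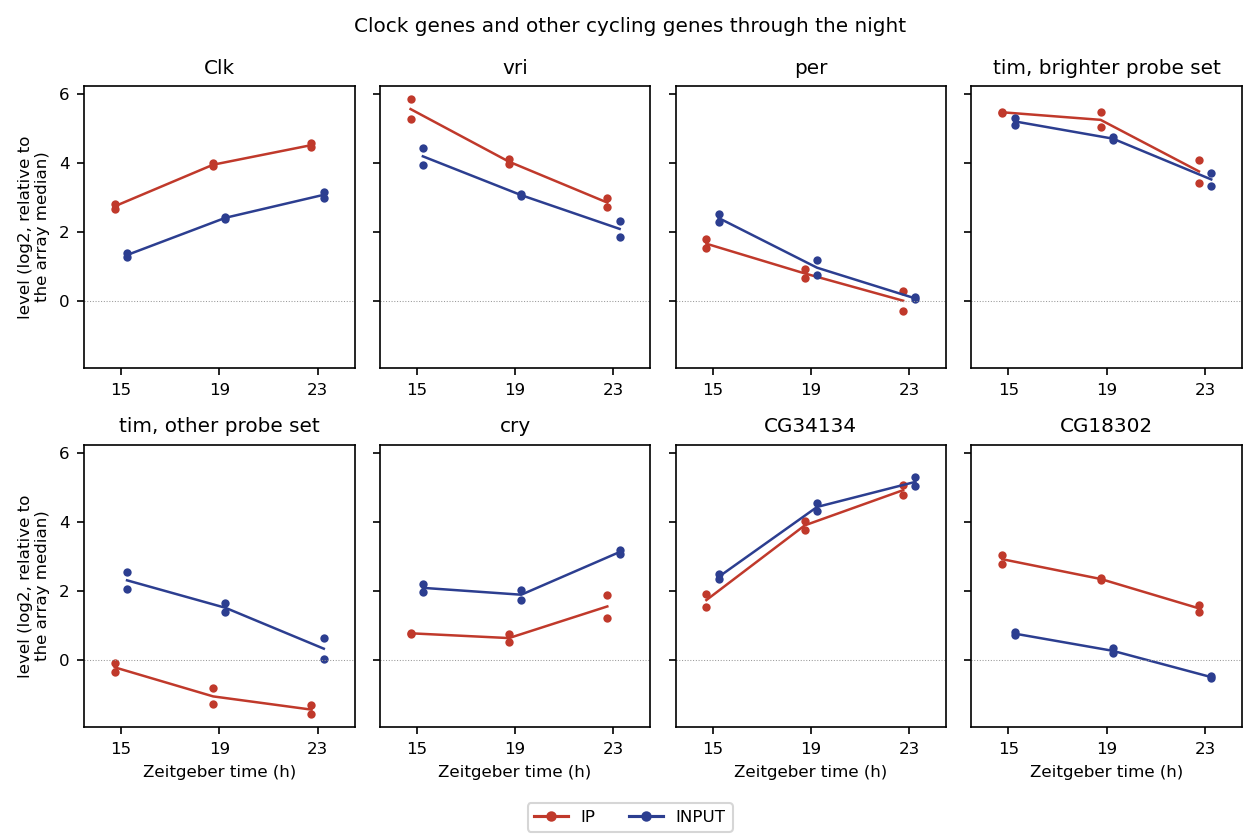
Levels (log2 relative to the array median) of clock and other cycling genes at ZT15, ZT19 and ZT23 in IP (red, drawn left) and INPUT (blue, drawn right), 1 point per array and lines through the means of 2. In both fractions Clk is higher and vri, per and tim are lower at ZT23 than at ZT15, with Clk in IP at a nearly constant distance above INPUT. The IP lines of the probe sets of tim lie on different sides of INPUT, and on the deposited scale, where IP sits lower by 1.32, the brighter tim probe set lies below it at all 3 times and vri at ZT19 and ZT23.

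Both fractions were also compared between the end and the start of the night. At ZT23 relative to ZT15, 11 probe sets were higher (0.0727%) and 9 lower (0.0595%) in IP, and 11 were higher (0.0727%) and 9 lower (0.0595%) in INPUT. Of the higher ones 7 were called in both fractions, 63.6% of each set, and of the lower ones 7, or 77.8% of each set. Clk rose by 1.77 (SE 0.15, adjusted p = 0.000335) in IP and 1.75 (SE 0.15, adjusted p = 0.000483) in INPUT. CG34134 had IP levels of 5.08 and 4.77 at ZT23 and 1.93 and 1.55 at ZT15, against INPUT levels of 5.04 and 5.29 and 2.34 and 2.49, changes of 3.19 (SE 0.19, adjusted p = 1.41e-05) and 2.75 (SE 0.19, adjusted p = 0.000113). The shifts of Clk in the fractions differed by less than their standard errors, and for CG34134 the change of enrichment over the night did not pass the test (adjusted p = 1.00).

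Other genes higher at ZT23 in IP included CG13305 by 1.71 (SE 0.22, adjusted p = 0.0111), the vitamin transporter gene Smvt by 1.68 (SE 0.27, adjusted p = 0.0392), the glycosyltransferase gene Ugt35B1 by 1.6 (SE 0.24, adjusted p = 0.0258) and Acsx3 by 1.34 (SE 0.17, adjusted p = 0.0111). In INPUT they included CG42329 by 2.17 (SE 0.15, adjusted p = 0.000113), Smvt by 1.97 (SE 0.27, adjusted p = 0.0138), Ugt35B1 by 1.92 (SE 0.24, adjusted p = 0.00937) and the cuticle protein gene Cpr72Ec by 1.83 (SE 0.29, adjusted p = 0.0388). CG13305 and Acsx3 also passed in INPUT, at 1.74 (adjusted p = 0.00937) and 1.29 (0.0129), and CG42329 also passed in IP, at 1.18 (0.0118). CG42329 had -0.40 and -0.36 at ZT23 and -1.51 and -1.62 at ZT15 in IP, against 0.55 and 0.56 and -1.61 and -1.61 in INPUT, so that IP was below INPUT at ZT23 and level with it at ZT15.

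Among the genes lower at ZT23, dy changed by -4.53 (SE 0.20, adjusted p = 1.16e-06) in IP and -1.26 (SE 0.20, adjusted p = 0.0433) in INPUT, and BobA by -4.03 (SE 0.54, adjusted p = 0.0139) in IP, with -0.33 (SE 0.54, adjusted p = 1.00) in INPUT. The IP call of BobA is not independent of the filter, which the gene passed through its IP arrays of ZT15 and ZT19. Usp8 had IP levels of 1.65 and 1.66 at ZT23 and 4.57 and 4.83 at ZT15, against INPUT levels of 1.57 and 1.38 and 3.50 and 3.24, changes of -3.04 (SE 0.17, adjusted p = 5.59e-06) and -1.89 (SE 0.17, adjusted p = 0.000483). vri changed by -2.71 (SE 0.24, adjusted p = 0.000464) in IP and -2.10 (SE 0.24, adjusted p = 0.00529) in INPUT. per changed by -1.65 (SE 0.23, adjusted p = 0.0145) in IP and -2.33 (SE 0.23, adjusted p = 0.0012) in INPUT, and tim by -1.71 (SE 0.23, adjusted p = 0.0145) in IP and -1.68 (SE 0.23, adjusted p = 0.014) in INPUT. CG18302, which was enriched by 2.08 (SE 0.077) over the night, changed by -1.43 (SE 0.16, adjusted p = 0.00334) in IP and -1.26 (SE 0.16, adjusted p = 0.00937) in INPUT, and its enrichment was 2.16, 2.08 and 1.99 at ZT15, ZT19 and ZT23.

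Each of these comparisons rests on 2 arrays against 2. Fitted on the 6 arrays of 1 fraction alone, 2 probe sets were higher and 4 lower in IP, and 8 were higher and 4 lower in INPUT. With any 1 of the 4 arrays left out, 2 to 5 were higher and 3 to 7 lower in IP, and 3 to 9 higher and 2 to 7 lower in INPUT. Fits with an array left out were read for the 6 highest and 6 lowest genes of each fraction, so not for CG18302 in IP. Of these genes CG34134, Clk, dy, Usp8 and vri passed in all fits in IP, and CG34134, CG42329, Clk, per and Usp8 in INPUT.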

How the data were processed

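RNA of AGO1 precipitates and head extracts was extracted, labelled and hybridised to Affymetrix arrays, and the values the authors deposited are log2 expression values per probe set which they made with GCRMA (per the submitters' processing notes, which name no version and no set of arrays). Groups and replicate numbers came from the sample titles. From 18952 probe sets 183 controls were removed. The platform annotation gave 1 gene symbol to 13647 of the remaining 18769 probe sets, several to 402 and none to 4720, and only probe sets with 1 symbol were named. The probe set brightest on average in the 12 night arrays stands for its gene.

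Each array was centred on its median, since the fractions differ in median by 1.32, and probe sets over 4 (deposited log2) in at least 3 arrays of the fit were kept. Deposited IP values were lower, and some list members passed through INPUT, with fewer than 3 IP arrays above 4. Among them were FMRFa, CCHa1, CCAP, ImpE2, ImpE3, ds, eag, Elk, na and Cp38. A lower call of such a gene is not independent of the filter. limma 3.58.1 in R 4.3.3 fitted the 12 night arrays with each pair of IP and INPUT of the same time and replicate number as a block (5 residual and 10.7 prior degrees of freedom). Enrichment at each time and its change among times came from the same blocked design with a term per time, ZT23 minus ZT15 from group means over the 12 arrays without the block, and night minus day from the 11 wild-type pairs, of which 5 are from the day (15517 probe sets kept). Benjamini-Hochberg adjustment ran over all probe sets kept, with 0.05 as threshold. The replicate number was taken to pair the samples. Deviations of same-numbered IP and INPUT arrays from their group means correlated at 0.668, 0.433 and 0.384 at ZT15, ZT19 and ZT23. Between different times they correlated at -0.038 (IP ZT23 with INPUT ZT15) to 0.409 (IP ZT15 with INPUT ZT19). Whether the pairing is specific to a time was not tested. P-values of the fits with pairs measure the spread of the IP minus INPUT differences between pairs. Those of ZT23 minus ZT15 measure the spread between arrays of the same fraction and time. Fits were tested on simulated data.

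Genes named are the 15 highest and 10 lowest for night enrichment with 1 sign in all pairs, the 8 smallest p for the change in the night, the 6 smallest p for night minus day, the 6 highest and 6 lowest per fraction for ZT23 minus ZT15, all core clock genes and up to 4 members of each other list with the largest absolute enrichment. Second probe sets, gw, tim as the lowest microRNA target, Ocho and E(spl)mbeta-HLH, the lower ribosomal protein genes and members named with their list beyond those were chosen after their values were seen. Members and gene lists were chosen with earlier results of these data known. Alternatives were deposited values without centring, quantile normalization, cyclic loess, no filter, a mean above 5, no block or a block by replicate number, other groupings of times and fractions, and leaving out each pair or array. Figures were drawn with matplotlib 3.10.9.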

Additional observations from a re-analysis of the deposited data

Results flagged for a closer look

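A test for a single pair far from the other 5, by the gap to the nearest over the range (Dixon's critical value), was run on the night enrichment of 128 named genes and picked out 4 of them (3.12%). For genes not chosen by their values chance gives about 1 in 20. Most named genes were chosen by their values, so the shares cannot be compared. For Vang, the pair ZT19 replicate 2 had an enrichment of 3.30, and the others lay between 3.88 and 4.17. For cry, ZT23 replicate 2 had -1.87, and the others lay between -1.41 and -1.22. For ds, the same pair had 0.32, against 0.80 to 1.01 in the others, and for Shal, ZT15 replicate 2 had 1.84, against 1.10 to 1.34 in the others. In none of these did the single pair turn the direction.

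Enrichment differed between night and day, by the test of the difference itself, in 4 probe sets: dy (1.42), CG7252 (0.96), the less bright probe set of tim (-0.84) and CG34134 (-1.06), all as night minus day in log2. As 2 groups of pairs the adjusted p of dy was 0.999, and with 1 of the 11 pairs left out in turn the call was lost in 4 fits for CG7252, 8 for CG34134 and 10 for tim, and in none for dy. It differed among the night times in dy, by 3.28 between the highest and lowest time, and in BobA, by 3.70. BobA passed the filter through its IP arrays of ZT15 and ZT19, so its call is not independent of the filter. For dy and BobA the low value at ZT23 came with IP levels near the lower quartile of the arrays. For CG7252 the INPUT levels were near it at all times, and the IP levels were near it by day. The part of low signal in these differences was not tested.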

How the results depend on the processing

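Quantile normalization, cyclic loess and no filter changed no direction of the night enrichment of the 128 named genes and took no call away. Leaving out 1 pair in turn gave 4431 to 4614 probe sets higher and 4489 to 4780 lower, and 764 of 768 values for single genes kept their call.

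Without centring, on the deposited scale, 592 probe sets were higher and 14076 lower at night, and 466 and 13758 at ZT15, 427 and 13805 at ZT19, and 458 and 13708 at ZT23. By construction all enrichments are then lower by 1.32, and 28 named genes turned negative: tim (-0.97), vri (-0.28), Pdp1 (-1.20), cwo (-0.31), jet (-0.49), ds (-0.54), stan (-0.57), cac (-0.13), SIFa (-0.086), Nplp1 (-0.17), ITP (-0.42), SK (-0.19), repo (-0.22), nrv2 (-0.28), Mtp (-0.46), Yp1 (-0.53), Act87E (-0.018), Act88F (-0.17), Mlc2 (-0.29), Hsp27 (-0.062), DnaJ-1 (-0.48), Hsp68 (-0.55), RpS20 (-0.45), Jon99Fi (-0.31), Jon25Bii (-0.46), zetaTry (-0.72), dj (-0.94) and Acp53C14b (-0.57). Clk, ImpL2, Sh, Shal, bmm and ND-B16.6 stayed above 0 but did not pass there.

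Without the replicate block, the night counts stayed within 1.5 times, the calls of 7 named genes given above were lost, and lower calls were 1896, 1827 and 1882 at ZT15, ZT19 and ZT23. The change within the night called 1 probe set without the block and under quantile normalization, cyclic loess and a mean above 5. Night minus day called 0 higher and 0 lower with a mean above 5, 1 lower without the block, and 1 higher and 0 lower as 2 groups of pairs. The mean above 5 left out dy and CG7252. CG34134 and the less bright tim probe set stayed in and missed the threshold (adjusted p = 0.0826 and 0.0721). The ZT23 minus ZT15 comparison on 1 fraction alone called 2 higher and 4 lower in IP and 4 lower in INPUT, and the block by replicate number took no named call away. The causes were not tested.

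Leaving out 1 pair or array gave 1 to 5 calls of a change within the night (1 without either ZT15 pair, 5 without ZT19 replicate 2 or ZT23 replicate 2), 1 to 2 higher and 0 to 1 lower for night minus day, 2 to 5 higher and 3 to 7 lower for ZT23 minus ZT15 in IP, and 3 to 9 higher and 2 to 7 lower in INPUT. At single times it gave 2602 to 3532 higher and 2188 to 3147 lower at ZT15, 2148 to 3479 and 1689 to 3271 at ZT19 (lowest without ZT19 replicate 1), and 2231 to 3446 and 1878 to 3391 at ZT23 (lowest without ZT23 replicate 1). A time then has a lone pair, which is assumed to vary like the others. Calls were fewest below the lower quartile of INPUT level, and the part of low signal was not tested.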

Other observations

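Probe sets of 1 gene could differ in direction at night. Of 889 genes with more than 1 probe set kept, 162 (18.2%) had probe sets called higher and lower in IP on the centred scale. The genes named here were chosen after their values were seen. lola, a transcription factor gene with many splice forms, had 15 probe sets between 1.85 (SE 0.10) and -1.41 (SE 0.080). dlg1, a scaffold of septate junctions and synapses, had 1.41 and -1.32 at its extremes, and gpp, a histone methyltransferase gene, had 2.13 and -0.53. Mlp60A had 2.81 and -0.73, and futsch, a microtubule-binding protein of axons, had 0.47 and -1.67.

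RpL3 had 0.25 by its brightest probe set and -2.11 by another, so that the gene value used in the ribosomal protein list is one of several. On the deposited scale the upper values of RpL3, futsch and tim are below 0, and the opposite directions of those genes are then no longer seen. Which transcript forms these probe sets read was not analysed here.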
